A study of Arabidopsis thaliana with 6 samples.

Results

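Transcripts of cytosolic ribosomal proteins were measured in root tips of Arabidopsis thaliana. The members were 60 genes chosen by locus ID, among 21125 genes listed in the deposited tables, and they encode 28 proteins of the large subunit, the small subunit and the stalk of the ribosome. A row was present for 59 of them. The level of the RPL13 gene AT3G48960 was not analysed here, and only its upstream sequence was counted. The RPL30 gene AT1G36240 was listed at 0.09, 0.19 and 0 CPM (reads of a gene scaled to a common library size) in wild type against 0.07, 0.07 and 0.06 CPM in scl28-3, below the level of 3 reads in each library, which left 58 members for testing. The product names of the reference annotation place these loci in ribosomal protein families. It writes several of them under other family names, such as L10 for P0 and L2 for L8, and it attaches the symbol of a kinase to the RPL30 gene AT3G18740, which is called here by its locus ID.

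The study compared wild-type plants with scl28-3, which carries a mutant allele of SCL28, a gene for a GRAS family transcription factor. The labels name this single allele and do not describe its lesion. Each genotype had 3 libraries, labelled as biological replicates, each pooled from about 300 root tips of about 2 mm that were cut from plants 6 days old. All plants grew in continuous light at 21 °C on agar medium with Murashige and Skoog salts and sucrose.

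A cytosolic ribosome joins a small subunit, which decodes the mRNA, to a large subunit, which forms the peptide bond. Each subunit is a core of ribosomal RNA coated with proteins that are needed in about equal numbers, and in Arabidopsis most of these proteins are encoded by several paralogous genes. Dividing cells of the root meristem make ribosomes at a high rate, and ribosomal protein genes are a standard example of genes expressed together. Their plant promoters are known for the telo box and for site II elements, the latter bound by TCP factors.

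SCL28 itself, the locus AT1G63100, was at 44.5, 42.6 and 42.4 CPM in wild type against 17.7, 14.9 and 13.7 CPM in scl28-3, a log2 fold change of -1.48. Depth, as reads recovered from the CPM steps, ran from 10399899 to 11572901 reads in wild type and from 13996534 to 16780424 reads in scl28-3. Wild type 2 was the shallowest library and scl28-3 3 the deepest. The root tip markers SCR, SHR, PLT1 and PLT2 were between 13.2 and 78.4 CPM in every library, WOX5 was between 0.36 and 1.13 CPM, and the tested markers of leaf cells summed to between 6.86 and 13.2 CPM. Endodermis markers summed to 172, 303 and 401 CPM in wild type and to 328, 325 and 480 CPM in scl28-3. None of these root tip, leaf or endodermis markers was at 0.

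The sequences upstream of the members show what the rule of the list did not use. In the 250 bases before the annotated gene start (RefSeq, TAIR10.1), the telo box AAACCCTA was found on either strand in 14 of 60 members (23.3%), against 3.77% of the 21019 genes with a row and an upstream sequence. A site II element, TGGGCC or TGGGCT on either strand, was found in 42 members (70%) against 22.2% of those genes. At least 2 such elements were found in 32 members (53.3%) against 14.6%, and both motifs in 10 members (16.7%) against 1.4%. Of the 155 other cytosolic ribosomal protein genes with a row, 18.1% held a telo box and 67.1% a site II element. The shares were 18.6% and 60.5% among 43 ribosome assembly factors, and 14.3% and 23.8% among 21 plastid ribosomal proteins. A match is a run of letters, and binding was not measured.

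The upstream sequences of the 3 P1 genes are shown because these genes varied together and apart from the other members, as described below with the stalk proteins. They lie at chr1:51211-51460, minus strand (AT1G01100), at chr4:347294-347543, minus strand (AT4G00810) and at chr5:19328987-19329236, minus strand (AT5G47700). Each runs 5′ to 3′ towards the gene, and capitals mark telo boxes and site II elements on either strand.
AT1G01100: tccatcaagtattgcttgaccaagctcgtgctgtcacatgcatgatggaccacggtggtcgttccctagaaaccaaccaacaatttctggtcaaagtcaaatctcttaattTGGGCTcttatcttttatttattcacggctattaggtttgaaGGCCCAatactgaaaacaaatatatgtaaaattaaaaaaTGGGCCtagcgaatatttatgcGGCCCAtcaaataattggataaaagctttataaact
AT4G00810: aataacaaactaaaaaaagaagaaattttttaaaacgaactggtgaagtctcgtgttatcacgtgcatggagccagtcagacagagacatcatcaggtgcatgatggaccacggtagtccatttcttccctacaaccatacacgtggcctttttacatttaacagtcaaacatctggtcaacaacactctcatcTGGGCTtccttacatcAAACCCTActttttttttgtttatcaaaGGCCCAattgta
AT5G47700: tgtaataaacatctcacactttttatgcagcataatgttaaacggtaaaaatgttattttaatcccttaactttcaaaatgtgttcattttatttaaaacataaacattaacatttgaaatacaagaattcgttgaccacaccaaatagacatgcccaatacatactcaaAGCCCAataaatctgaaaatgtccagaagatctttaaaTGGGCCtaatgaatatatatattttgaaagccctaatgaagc
AT1G01100 held 4 site II elements and no telo box. AT4G00810 held 2 site II elements and 1 telo box, and AT5G47700 held 2 site II elements.

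The 2 genes of ribosomal protein S5 are shown because their use differed most between the genotypes. RPS5A (AT3G11940) has its upstream sequence at chr3:3779546-3779795, minus strand, and RPS5B (AT2G37270) at chr2:15649472-15649721, minus strand.
RPS5A: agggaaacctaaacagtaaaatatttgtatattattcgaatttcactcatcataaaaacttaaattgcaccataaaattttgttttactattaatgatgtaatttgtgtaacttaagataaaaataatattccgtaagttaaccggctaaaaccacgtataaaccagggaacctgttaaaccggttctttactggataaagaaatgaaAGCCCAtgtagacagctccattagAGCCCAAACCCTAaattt
RPS5B: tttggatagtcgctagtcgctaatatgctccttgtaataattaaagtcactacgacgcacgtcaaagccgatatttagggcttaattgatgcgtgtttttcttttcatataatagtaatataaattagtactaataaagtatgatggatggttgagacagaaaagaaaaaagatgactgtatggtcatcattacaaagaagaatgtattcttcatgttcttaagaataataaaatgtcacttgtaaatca
RPS5A held 2 site II elements and 1 telo box, and the element nearest to the gene overlaps the telo box. RPS5B held neither motif in this window.

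The S9 pair is shown because nearly all S9 transcript came from a single gene. The upstream sequence of AT5G15200 lies at chr5:4936430-4936679, minus strand, and that of AT5G39850 at chr5:15949660-15949909, plus strand.
AT5G15200: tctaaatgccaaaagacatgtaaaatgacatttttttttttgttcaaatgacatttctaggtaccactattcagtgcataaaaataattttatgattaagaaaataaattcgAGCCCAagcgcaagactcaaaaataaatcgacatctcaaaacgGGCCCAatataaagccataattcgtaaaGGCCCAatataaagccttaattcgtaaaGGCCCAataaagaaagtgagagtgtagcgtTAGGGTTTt
AT5G39850: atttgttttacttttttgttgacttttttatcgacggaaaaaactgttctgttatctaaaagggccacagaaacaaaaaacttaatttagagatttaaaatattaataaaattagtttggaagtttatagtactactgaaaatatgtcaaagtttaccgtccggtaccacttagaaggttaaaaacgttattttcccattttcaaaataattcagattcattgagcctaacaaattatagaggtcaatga
AT5G15200 held 4 site II elements and 1 telo box, and AT5G39850 held neither. Both genes of L23a and the S13 gene RPS13A (AT4G00100) also held neither motif in this window. In other proteins the order varied. In SA the main gene AT1G72370 held 1 telo box and AT3G04770 neither motif. In P0 the main gene AT3G09200 held 1 site II element, and AT3G11250 and AT2G40010 held 2 each. In S8 the main gene AT5G20290 held 3 site II elements, and the minor gene AT5G59240 held 1 telo box and no site II element. The motifs thus did not follow level in every protein.

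The members' share of the transcriptome was close to even between the genotypes. The 59 members with a row held 5.09%, 5.79% and 5.23% of total CPM in wild type against 5.20%, 5.42% and 4.80% in scl28-3. Wild type 2 had the highest share and scl28-3 3 the lowest, and the genotypes overlapped. The means were 5.37 ± 0.372% and 5.14 ± 0.316% (SD, n = 3 each), a difference of -0.226 percentage points that was smaller than the spread within a genotype (two-sided exact permutation p = 0.5, with 0.1 the smallest that 3 against 3 allows). The difference was -0.015 points without wild type 2, -0.055 points without scl28-3 3 and 0.156 points without both. Leaving out the highest wild-type and the lowest scl28-3 library can only raise the difference, so the value without both does not settle its direction. The difference stayed below 0 whenever a single library was left out. All cytosolic ribosomal protein genes listed, members included, held 12.8%, 14.8% and 13.7% in wild type against 13.2%, 13.8% and 12.1% in scl28-3 (exact permutation p = 0.5). In bulk samples, fewer cells of a type and less RNA per cell cannot be told apart.

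**Figure D1:**
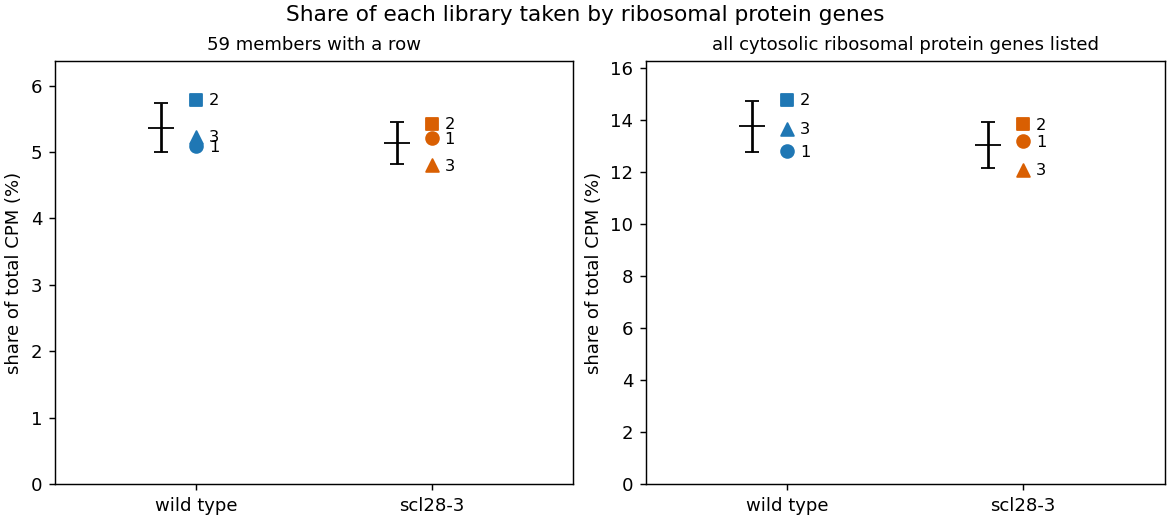
Share of total CPM (%, y axis from 0) held by the 59 members with a row (left) and by all cytosolic ribosomal protein genes listed (right), for each library of wild type and scl28-3; numbers are the library numbers and black marks the mean ± SD of 3 libraries. Wild type 2 is highest and scl28-3 3 lowest in both panels, and the genotypes overlap.

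The balance between the subunits was also close to even. Summed CPM of the large-subunit members was 1.64, 1.57 and 1.63 times that of the small-subunit members in wild type against 1.66, 1.61 and 1.57 times in scl28-3, with means of 1.61 in both genotypes (exact permutation p = 1). The ratio covers only the listed genes. Stalk members held 0.350%, 0.491% and 0.425% of total CPM in wild type against 0.396%, 0.439% and 0.399% in scl28-3, with wild type 1 lowest.

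No member passed the test between the genotypes. Of 58 tested members, 0 had a limma adjusted p under 0.05, where 13 of 17879 genes (0.0727%) were called, and edgeR's quasi-likelihood test and DESeq2 on the recovered reads also called 0 members. The smallest limma adjusted p of a member was 0.992. An unadjusted limma p under 0.05 was found for 1 member, against 4.41% of all genes tested. The fold changes were small: from -0.36 to 0.10 on the log2(CPM + 0.5) scale, with a median SE of 0.10.

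The estimates leaned to lower values in scl28-3. Of the 58 members, 53 had a log2 fold change below 0 (91.4%), against 48.1% of all genes tested and 60.2% of the 1979 other genes of at least 100 CPM. The median was -0.10 over members and 0.0067 over all genes tested. It was -0.034 without wild type 2, -0.031 without scl28-3 3 and 0.022 without both, where 19 of 58 members were below 0. The count below 0 was 42 without wild type 2 and 34 without scl28-3 3. The genotypes did not overlap in 2 of 58 members, both lower in scl28-3, against a background of 10.5% of all genes tested (5.21% lower), so the members' share was below that background. With 2 libraries against 3, fewer values have to stand apart and the background is higher. The count was 10 without wild type 1 (17.2%, against 28.6% of all genes tested in the same 5 libraries), 14 without wild type 3 (24.1% against 22.9%) and 18 without scl28-3 2 (31% against 17.7%). Without wild type 2 it was 2 (3.45% against 17.9%). It was 3 without scl28-3 1 (5.17% against 19.7%) and 3 without scl28-3 3 (5.17% against 15.6%). The members' share was thus near the background without wild type 3, well above it only without scl28-3 2, and below it otherwise.

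**Figure D2:**
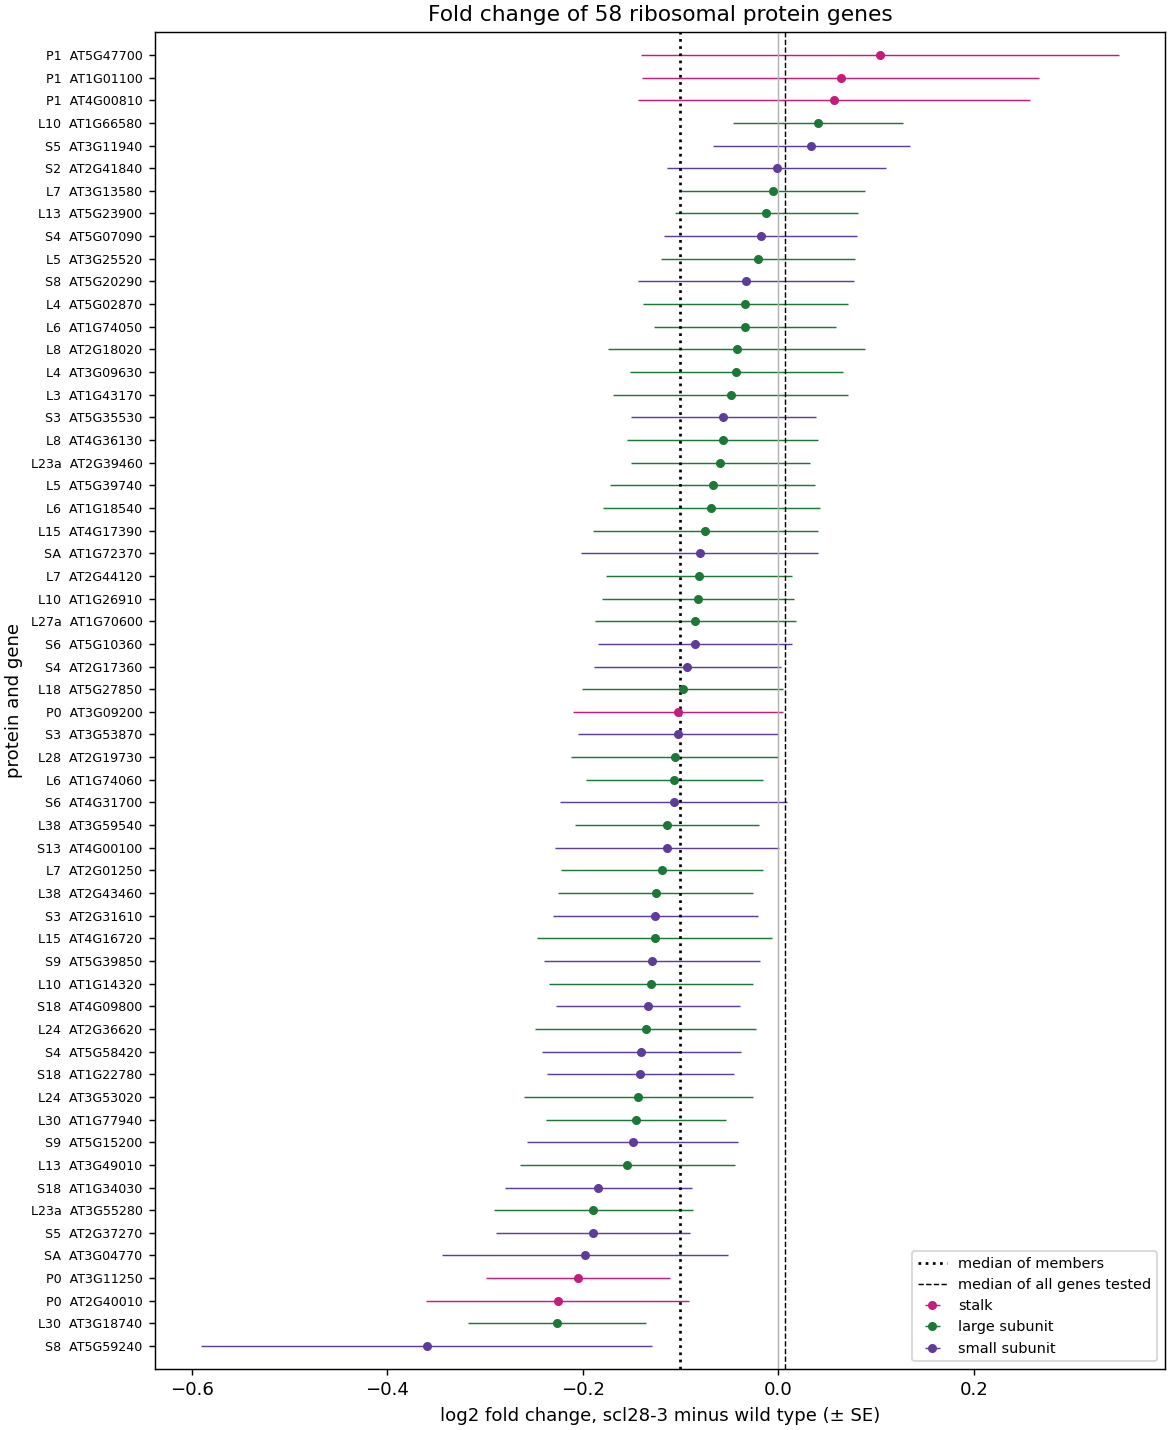
Log2 fold change (scl28-3 minus wild type, log2(CPM + 0.5) scale, x axis) of the 58 tested members with its SE (bars), ordered by size and coloured by part of the ribosome. The members' median lies at -0.10 and that of all genes tested at 0.0067, and 5 members lie above 0, among them the 3 P1 genes with the widest bars in that group.

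The stalk carries the factors of translation to the large subunit. P0 anchors it to the ribosomal RNA, and the acidic proteins P1 and P2 bind to P0 as dimers. The P0 gene AT3G09200 (chromosome 3, 2823088 to 2825241, minus strand) was at 2200, 2515 and 2156 CPM in wild type against 2164, 2264 and 2048 CPM in scl28-3. It was highest in wild type 2 and lowest in scl28-3 3, and the genotypes overlapped (log2 fold change -0.10 ± 0.11, SE).

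The other P0 genes were far lower. AT3G11250 was at 157, 166 and 146 CPM in wild type against 144, 139 and 128 CPM in scl28-3, so every scl28-3 library was below every wild-type library (log2 fold change -0.20 ± 0.09, SE; limma adjusted p = 0.992). It did not pass the test over all genes. AT2G40010 was at 50.9, 56.0 and 44.1 CPM in wild type against 51.2, 41.2 and 38.6 CPM in scl28-3, with overlap. The locus shares 1185 bases with the opposite-strand gene AT2G40008, which was at a mean of 0.05 CPM.

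The 3 P1 genes stood apart in wild type 1. AT1G01100 was at 434, 794 and 761 CPM in wild type against 624, 739 and 675 CPM in scl28-3. AT4G00810 was at 212, 394 and 352 CPM in wild type against 296, 360 and 324 CPM in scl28-3. AT5G47700 was at 445, 984 and 787 CPM in wild type against 675, 849 and 776 CPM in scl28-3. In each of them wild type 1 was the lowest of the 6 libraries and wild type 2 the highest, so wild type spanned all of scl28-3. Relative to a gene's own mean over 6 libraries, wild type 1 lay at -0.58, -0.56 and -0.70 on the log2 scale for these genes. Across the 55 other tested members its median was 0.00, and the lowest was the L8 gene EMB2296 at -0.24. The SE of the P1 fold changes (0.20 to 0.24) was larger than the members' median SE of 0.10. In wild type 1 the endodermis markers were also at their lowest sum, with 8 of 9 lowest there against 25.8% of all genes tested, and their part in the P1 levels was not tested.

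The genes of P2 and of the plant-specific P3, which were not members, were looked at after these values were seen. The P2 gene AT2G27710 was at 850, 1085 and 988 CPM in wild type against 873, 974 and 837 CPM in scl28-3. The P3 gene AT5G57290 was at 456, 620 and 609 CPM in wild type against 545, 613 and 514 CPM in scl28-3. AT5G57290 and the P2 gene AT2G27720, at 567, 724 and 658 CPM in wild type against 597, 685 and 601 CPM in scl28-3, were lowest in wild type 1. AT2G27710 was lowest in scl28-3 3, as were the P2 gene AT3G44590, at 151, 192 and 165 CPM against 158, 160 and 127 CPM, and the P3 gene AT4G25890, at 151, 178 and 161 CPM against 148, 148 and 115 CPM. Each of these genes was highest in wild type 2, so their order at the low end was not shared. The P2 gene AT3G28500 lay between 0.79 and 1.05 CPM. The 3 genes of small-subunit protein S26 followed the P1 pattern. AT2G40510 was at 171, 322 and 270 CPM in wild type, AT2G40590 at 114, 212 and 183 CPM, and AT3G56340 at 502, 820 and 660 CPM. In scl28-3 they were at 218, 273 and 252 CPM, at 144, 173 and 157 CPM, and at 577, 685 and 642 CPM, so wild type 1 was the lowest of the 6 libraries for each.

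Among the large-subunit members, 30 of 31 had a log2 fold change below 0, with a median of -0.08. RP1, the L3 gene AT1G43170, encodes a protein that reaches to the peptidyl transferase centre. It stood at 2587, 2305 and 2072 CPM in wild type against 2403, 2343 and 2063 CPM in scl28-3. Unlike most members it was highest in wild type 1. The L4 genes AT3G09630 and AT5G02870, for a protein that lines the exit tunnel, were at means of 1309 ± 118 and 1068 ± 59.1 CPM in wild type and of 1287 ± 94.2 and 1059 ± 94.9 CPM in scl28-3 (SD, n = 3 each).

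L5 binds the 5S ribosomal RNA. Its genes ATL5 (AT3G25520) and RPL5B (AT5G39740) were at 1753 ± 109 and 1534 ± 87.2 CPM in wild type against 1750 ± 70.4 and 1485 ± 114 CPM in scl28-3 (SD, n = 3 each). For both the difference between genotypes was smaller than the spread within them. EMB2296 (AT2G18020), which encodes L8 and is named for the embryo arrest of its mutant, was at 1452, 1982 and 1840 CPM in wild type against 1752, 1828 and 1576 CPM in scl28-3. Its wild type 1 value was the lowest, while its paralogue AT4G36130, at 598, 614 and 548 CPM in wild type against 595, 594 and 527 CPM in scl28-3, did not share that low value.

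L10 joins the large subunit late in its assembly. SAC52 (AT1G14320; chromosome 1, 4888114 to 4889704, plus strand) was at 1510, 1734 and 1566 CPM in wild type against 1525, 1557 and 1371 CPM in scl28-3. SAG24 (AT1G66580) was at 786, 793 and 770 CPM in wild type against 840, 836 and 774 CPM in scl28-3, and it was the only large-subunit member with a fold change above 0 (0.04 ± 0.09, SE). Both overlapped between the genotypes, as did RPL10B (AT1G26910), at means of 89.6 ± 2.92 and 85.9 ± 7.94 CPM (SD, n = 3 each).

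The RPL30 gene AT3G18740 had the lowest fold change of the large subunit. It stood at 409, 449 and 416 CPM in wild type against 373, 387 and 343 CPM in scl28-3 (log2 fold change -0.23 ± 0.09, SE; limma adjusted p = 0.992). Every scl28-3 library was below every wild-type library, and it was the member with an unadjusted limma p under 0.05 (0.034). Its paralogue AT1G77940 was at 807, 880 and 876 CPM in wild type against 792, 824 and 733 CPM in scl28-3, with overlap. STV1 (AT3G53020), an L24 gene known for its role in the translation of mRNAs with upstream reading frames, was at 830, 1072 and 863 CPM in wild type against 823, 884 and 815 CPM in scl28-3. Its upstream sequence held 5 site II elements, the largest number among the members, whereas the window of the other L24 gene, RPL24A (AT2G36620), held none.

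Among the small-subunit members, 20 of 21 had a log2 fold change below 0, with a median of -0.11. AT5G20290, an S8 gene, was the member with the highest level per kb, a mean of 2047 CPM per kb of exon. It stood at 2173, 2565 and 2161 CPM in wild type against 2277, 2380 and 2159 CPM in scl28-3. The other S8 gene, AT5G59240, had the lowest fold change of all members (-0.36 ± 0.23, SE; limma adjusted p = 0.992). It stood at 25.3, 21.6 and 15 CPM in wild type against 19.9, 17.1 and 11.6 CPM in scl28-3, with overlap and with a wide spread in both genotypes.

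P40 (AT1G72370) encodes SA, a protein of the small subunit near the exit of the mRNA. It stood at 1562, 1951 and 1510 CPM in wild type against 1570, 1671 and 1545 CPM in scl28-3. Its paralogue RPSAb (AT3G04770) was at 50.3, 49.0 and 37.8 CPM in wild type against 42.6, 44.0 and 34.2 CPM in scl28-3 (log2 fold change -0.20 ± 0.15, SE). Both overlapped between the genotypes. Reads of RPSAb may be shared with AT3G04780, a gene of the same strand that overlaps it by 132 bases and was at a mean of 88.6 CPM.

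S6 is the classical substrate of the S6 kinase of the TOR pathway. RPS6 (AT4G31700) was at 1427, 1325 and 1281 CPM in wild type against 1394, 1322 and 1096 CPM in scl28-3, and EMB3010 (AT5G10360) was at 1131, 1185 and 1067 CPM in wild type against 1101, 1136 and 996 CPM in scl28-3. In both genes scl28-3 3 was the lowest library and the genotypes overlapped. The 3 genes of S18, a protein of the small subunit's head, encode identical proteins. PFL (AT1G22780), named for the pointed first leaves of its mutant, was at 569, 654 and 599 CPM in wild type against 559, 589 and 526 CPM in scl28-3, and its fold change of -0.14 ± 0.10 (SE) lay between those of RPS18C (-0.13 ± 0.09) and AT1G34030 (-0.18 ± 0.10).

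**Figure D3:**
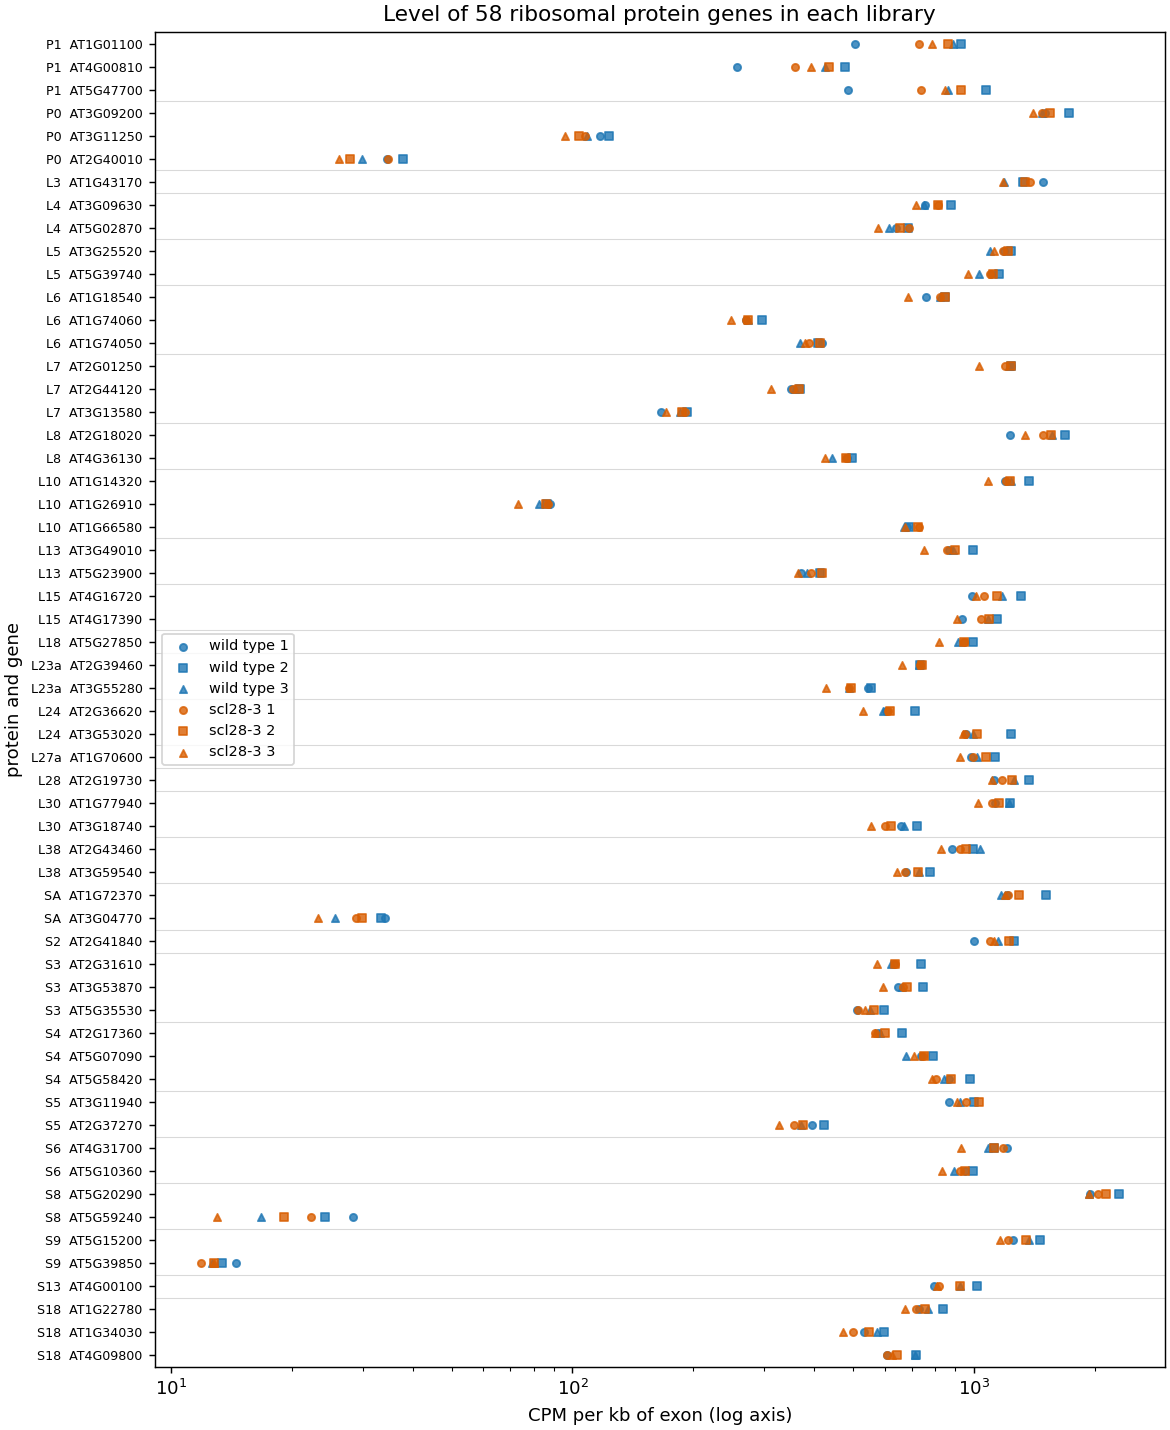
Level of each of the 58 tested members (CPM per kb of exon, log x axis) in each of the 6 libraries, grouped by protein; colour is the genotype and shape the library number. Mean levels run from 13 to 2047 CPM per kb, and in P0, SA, S8 and S9 the gap between paralogues is far wider than the spread between libraries.

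Levels per kb of exon spanned 157-fold between the highest and the lowest tested member. The highest were AT5G20290 (S8) at 2047, AT3G09200 (P0) at 1524, EMB2296 (L8) at 1477, RP1 (L3) at 1318 and AT5G15200 (S9) at 1304 CPM per kb. AT3G09200 and EMB2296 differed by less than the spread of EMB2296 over libraries, from 1234 to 1684 CPM per kb, and RP1 and AT5G15200 also did not differ beyond their spread. The lowest were RPL10B at 83.8, AT2G40010 (P0) at 31.8, RPSAb at 29.2, AT5G59240 (S8) at 20.6 and AT5G39850 (S9) at 13 CPM per kb. The median was 766 CPM per kb. Summed over the listed genes of a protein, the range was narrower, from a mean of 882 CPM per kb for S13 to 2252 CPM per kb for L5. L3, L7, L8, L18, L27a, L28, S2 and S13 have further genes outside the list, and with those that had a row added S13 was at 1778 CPM per kb.

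Of the 28 proteins, 22 had at least 2 tested genes, 52 genes in all, and in 4 of them a single gene gave over 90% of the transcript per kb. AT5G20290 gave between 98.6% and 99.3% of S8, AT5G15200 between 98.9% and 99.1% of S9, P40 between 97.3% and 98.1% of SA and AT3G09200 between 90.9% and 92.2% of P0. The other proteins drew on several genes. ATL5 and RPL5B were close to even (51.6% to 53.7% for ATL5), as were the L15 genes, of which AT4G16720 gave between 50.4% and 53.5%. The S3 genes AT2G31610, AT3G53870 and AT5G35530 each gave between 28.4% and 36.7%.

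The shares of paralogues moved by a few percentage points over the libraries. The range of a gene's share over the 6 libraries had a median of 2.31 percentage points and reached 6.10 points in L8, where EMB2296 gave 71.8% in wild type 1 and between 75.6% and 77.9% in the other libraries. In P1 the summed level ran from 1251 CPM per kb in wild type 1 to 2479 CPM per kb in wild type 2. The share of AT1G01100 stayed between 37.4% and 40.9%, that of AT4G00810 between 19.2% and 20.6% and that of AT5G47700 between 38.9% and 43.4%. A small share could still change by a large factor, as the S8 gene AT5G59240 gave 1.44% in wild type 1 and 0.668% in scl28-3 3.

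In 13 of 52 shares (25%), belonging to 7 of 22 proteins (31.8%), the genotypes did not overlap. The level of 10.5% of all genes tested did not overlap, but a level and a share are different quantities, and shares of other gene families were not computed. Shares of a protein sum to the whole, so paralogues mirror each other and are not independent. RPS5A, whose promoter is widely used to express genes in dividing cells, gave 68.6%, 70.3% and 71.4% of S5 in wild type against 72.9%, 73.3% and 73.6% in scl28-3. The difference of 3.15 percentage points was the largest among the shares (exact permutation p = 0.1, the smallest possible). The levels behind it were 1010, 1169 and 1076 CPM for RPS5A in wild type against 1118, 1199 and 1059 CPM in scl28-3, against 499, 534 and 467 CPM and 450, 472 and 411 CPM for RPS5B. Both genes overlapped between the genotypes in level, and RPS5A was among the 5 members with a fold change above 0 (0.03 ± 0.10, SE) while RPS5B was at -0.19 ± 0.10 (SE).

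In L10, SAC52 gave 60.8%, 63.9% and 62.2% in wild type against 59.6%, 60.2% and 59.2% in scl28-3. SAG24 gave 34.8%, 32.1% and 33.6% in wild type against 36.1%, 35.6% and 36.7% in scl28-3. The share was lower in every scl28-3 library for SAC52 and higher in every one for SAG24, with mean differences of -2.59 and 2.64 percentage points (exact permutation p = 0.1 each). RPL10B overlapped, at 4.01% to 4.47%.

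In L13, BBC1 (AT3G49010) gave 70.0%, 70.6% and 69.8% in wild type against 68.5%, 68.3% and 67.3% in scl28-3, lower in every scl28-3 library, with AT5G23900 taking the rest (exact permutation p = 0.1). In L23a, RPL23AA (AT2G39460) gave 57.4%, 57.0% and 59.9% in wild type against 60.1%, 60.0% and 60.8% in scl28-3, where wild type 3 lay next to the scl28-3 libraries. In S4, AT5G58420 gave 39.7%, 40.1% and 40.0% in wild type against 38%, 39.3% and 38.1% in scl28-3. The differences in L30 (1.30 points for AT1G77940) and L5 (0.81 points for ATL5) were smaller still, and in L5 the libraries other than scl28-3 3 lay within 51.6% to 52.1%. The count of such shares ran from 14 to 18 when a library was left out in turn, which also raises the share of all genes whose levels do not overlap, to between 15.6% and 28.6%. None of these tests can pass 0.05 with 3 libraries per genotype.

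**Figure D4:**
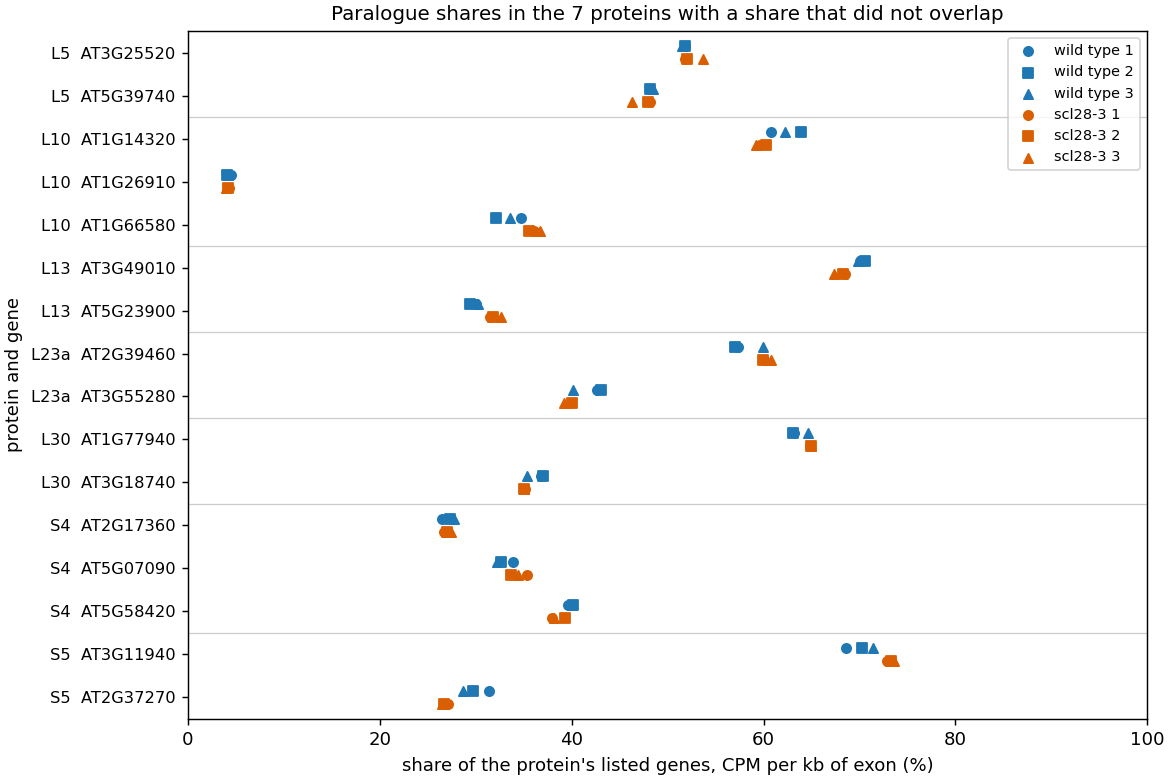
Share of each gene (%, x axis from 0 to 100) in the summed CPM per kb of exon of its protein's listed genes, for the 7 proteins with a share that did not overlap between genotypes; colour is the genotype and shape the library number. The largest difference is in S5, where RPS5A (AT3G11940) lies between 68.6% and 71.4% in wild type and between 72.9% and 73.6% in scl28-3.

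How well reads tell paralogues apart bears on these shares. Over the 38 pairs of tested paralogues the identity of the coding sequences had a median of 85.2% and ran from 70.4% for P40 and RPSAb to 94.2% for the L6 genes AT1G74060 and AT1G74050. In 4 pairs, those of L38 and S18, the encoded proteins were identical. The longest run of identical coding bases was 98 bases, in SAC52 and SAG24, and the median was 32. Read length is not given in the sources used here, so how far reads were split between paralogues was not tested. Of the 59 members with a row, 16 overlap another gene, and the strand setting of the counting was not given.

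Members varied over libraries together. Of 58 members, 48 were highest in wild type 2 (82.8%), against 16.4% of all genes tested and 24.8% of other genes of at least 100 CPM. In scl28-3 3, 44 members were lowest (75.9%), against 16.6% and 24.9%. The other cytosolic ribosomal protein genes shared this order. Of 151 tested, 125 were highest in wild type 2 (82.8%) and 118 lowest in scl28-3 3 (78.1%). The genes of at least 100 CPM leave out only the members, so some of these genes are among them. Without TMM scaling the members' counts were 44 and 40. The median deviation of a member from its own mean was 0.18 in wild type 2 and -0.16 in scl28-3 3 on the log2 scale, and between -0.02 and 0.05 in the other libraries. These libraries belong to different genotypes, and wild type 2 was also the shallowest library and scl28-3 3 the deepest. In scl28-3 3 the endodermis markers were at their highest sum, 480 CPM, and 9 of 9 of them were highest there, as were 6 of 8 root hair markers, against 18.6% of all genes tested. By genotype, 9 of 9 endodermis and 8 of 8 root hair markers had a log2 fold change above 0 (medians 0.43 and 0.22). So had 9288 of 17879 genes tested, and 0 of these markers were called. Of 7 dividing cell markers 3 were above 0, as were 2 of 5 root tip markers and 3 of 4 root cap markers. The part of depth or of cell makeup in the members' levels was not tested.

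**Figure D5:**
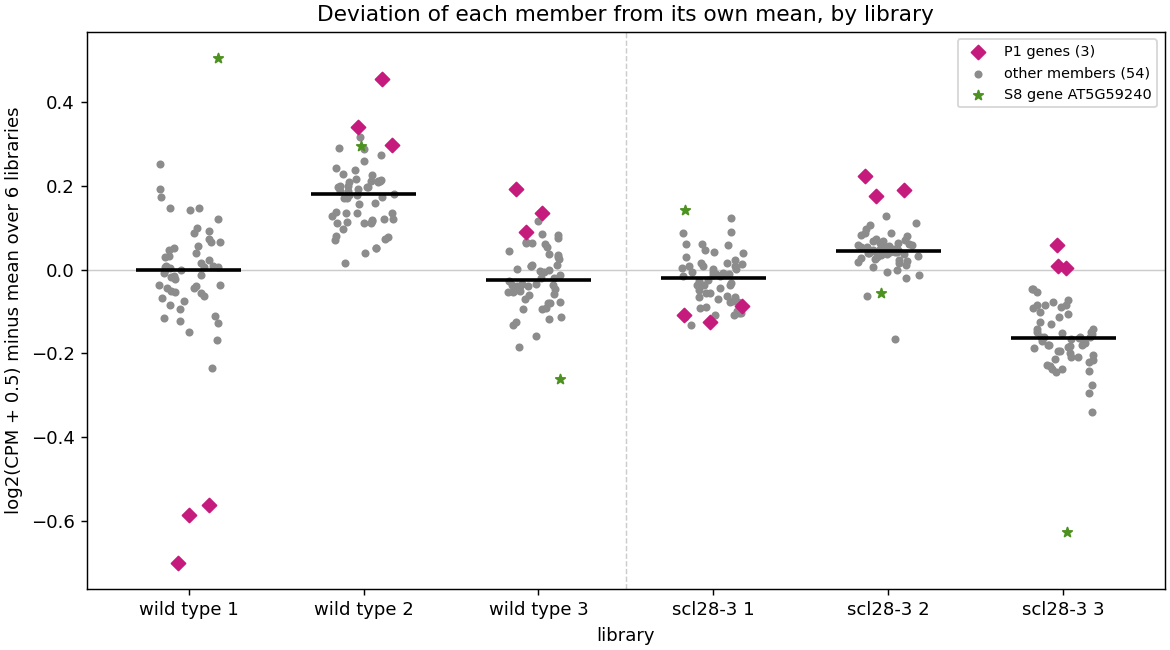
Deviation of each of the 58 tested members from its own mean over 6 libraries (log2(CPM + 0.5) scale, y axis) in each library (x axis); black lines are medians. The median is highest in wild type 2 (0.18) and lowest in scl28-3 3 (-0.16), and the 3 P1 genes lie between -0.56 and -0.70 in wild type 1.

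A few members departed from this pattern. The S8 gene AT5G59240 lay at 0.51 in wild type 1 and at -0.63 in scl28-3 3, a wider range than any other member outside P1. RPSAb, at 0.25 in wild type 1 and -0.34 in scl28-3 3, and RP1, at 0.19 and -0.18, were also highest in wild type 1. Ribosome assembly factors had that order as a group. Of 43 tested, 37 were highest in wild type 1, against 26.9% of all genes tested, and 31 lowest in scl28-3 3, with median deviations of 0.37 and -0.30. Of 7 dividing cell markers, 5 were highest in wild type 1 and 4 lowest in scl28-3 3 (median deviations 0.16 and -0.11), and of 5 root tip markers, 3 were highest in wild type 1 (median deviation 0.25) and 2 lowest in scl28-3 3. In wild type 2, 1 of 7 dividing cell and 0 of 5 root tip markers were highest, against 16.4% of all genes tested (median deviations -0.01 each). There 5 of 8 root hair and 2 of 4 root cap markers were lowest, against 17.6% (median deviations -0.24 and -0.35). The part of these markers in the order was not tested. NUC-L1 (AT1G48920), the nucleolin of ribosomal RNA synthesis, was at 1300, 1012 and 824 CPM in wild type against 1103, 926 and 749 CPM in scl28-3, and NOP56, a core protein of box C/D particles that guide RNA methylation, was at 781, 662 and 565 CPM and at 678, 608 and 482 CPM.

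Other genes of the translation machinery gave the same count of 0 called. Of 151 tested genes of other cytosolic ribosomal proteins, 147 had a log2 fold change below 0 (median -0.13) and 0 were called. Their most abundant gene, emb2386 of L19, was at 2124, 2381 and 2067 CPM in wild type against 2369, 2386 and 2174 CPM in scl28-3, so not all were lower. Of 43 assembly factors, 36 were below 0 (median -0.13) and 0 were called.

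Of 19 translation factors, 14 were below 0 (median -0.07) and 0 were called. The elongation factor gene AT5G60390, the most abundant of them, was at 5910, 5661 and 5001 CPM in wild type against 5337, 5303 and 4774 CPM in scl28-3, with overlap. Of 9 genes of the TOR pathway and of ribosomal gene regulation, 5 were below 0 (median -0.02) and 0 were called. Proteins of the plastid ribosome, read here as a different ribosome of the same cells, leaned the other way. Of 21 tested, 17 were above 0 (median 0.04), against 9288 of 17879 genes tested, and 0 were called. Wild type 1 was the lowest library for 16 of them (76.2%, against 25.8% of all genes tested). Wild type 2 was the highest for 14 (66.7%, against 16.4%). Their most abundant gene, RPS1 (AT5G30510), was at 53.7, 52.4 and 54 CPM in wild type against 52.1, 51.9 and 51.4 CPM in scl28-3, each scl28-3 value below each wild-type value by a narrow margin (log2 fold change -0.06 ± 0.08, SE).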

How the data were processed

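Root tip RNA was measured in 6 libraries, 3 of wild type and 3 of scl28-3, grouped by their titles. The deposited values were CPM, per the file headers. The submitters' processing notes name the TAIR10 genome with HISAT2 2.0.0, edgeR and also HTSeq 0.6.1p1. For annotation release, read length and strand setting nothing is given in the sources used here. CPM sums per library lay from 999949 to 999965, which is scaling to the library total. Dividing CPM by the step of 1 read gave whole reads within 0.1 read for 100% of values in 5 libraries and 99.9905% in scl28-3 3. Over the 6 libraries, 3 reads were worth 0.179 CPM (scl28-3 3) to 0.288 CPM (wild type 2). Tested members had between 145 and 36237 reads per library, and a count of 1000 reads, which 53 members exceeded in every library, carries a counting error of 3.16%. Intervals from reads cover counting error only.

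CPM was divided by TMM factors (edgeR 4.0.16) and tested with limma 3.58.1 (trend, R 4.3.3) on log2(CPM + 0.5), the scale of all fold changes and deviations; it understates changes of low genes. Genes passing filterByExpr (minimum count 10) on recovered reads, 17879 in all, were adjusted together (Benjamini-Hochberg, threshold 0.05). Shares were compared by two-sided exact permutation tests over libraries (scipy 1.17.1). Levels and shares between genes are CPM per kb of the union of exons. Names, lengths and sequences came from RefSeq TAIR10.1 (21020 gene IDs matched, 105 did not); its nuclear chromosomes were taken to be those of TAIR10, and the files hold no coordinates. Of the listed ribosomal loci outside the members, 2 were dropped because the reference does not name them as ribosomal.

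The members and the gene lists were chosen with earlier results of these data known, so the lists got no test of their own. The text names members whose genotypes do not overlap, the 5 largest fold changes in each direction, the 5 highest and lowest per kb, the highest and lowest gene of a protein whose shares are described, and the most abundant genes of other lists. Further members stand as examples of a protein's role, and these, the S26, P2 and P3 genes were chosen after their values were seen. Alternatives were the edgeR quasi-likelihood test, the deposited CPM without scaling, DESeq2 1.42.0 and its size factors, voom, pseudocounts, filters, a replicate block and leaving out libraries. Same-numbered libraries of the genotypes had correlations of deviations of 0.44, 0.04 and 0.50. Between libraries of different numbers the correlations ran from -0.46 to 0.07. The titles give the numbers without calling them pairs. The numbers were therefore not taken as pairs in the tests above, and the replicate block, given below, takes them so. Simulated data for scl28-3 against wild type gave every gene the same preset spread beyond counting error, which was not fitted to the members. With 17754 genes tested, calls were made for 18 of 49 genes given a 1.5-fold change and for 48 of 50 given a 2-fold change. All 48 were called at each of 4-fold and 8-fold, with 5 calls among 17559 unchanged genes.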

Additional observations from a re-analysis of the deposited data

How the results depend on the processing

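The count of 0 called members held in all 18 alternatives, and the smallest limma adjusted p of a member among them was 0.182, with the replicate block. That block, which takes the library number as a pair, called 63 genes against 13 and 0 members. With it, 8 of 58 members had an unadjusted limma p under 0.05, against 1960 of all 17879 genes tested. So had 35 of 151 other cytosolic ribosomal protein genes and 18 of 43 assembly factors, of which the block called 0. Among translation factors it was 4 of 19, and among plastid ribosomal proteins 1 of 21. The members' median stayed at -0.10, and the mean paired difference of their share was -0.226 percentage points (exact permutation p = 0.5). The members' median log2 fold change kept its direction in 17 of 18 alternatives, from -0.14 to -0.031 when a library was left out, and became 0.022 without wild type 2 and scl28-3 3 together. The difference in share of CPM ran from -0.366 to -0.015 points when a library was left out and became 0.156 points without both. The count of members whose genotypes do not overlap ran from 2 to 18 when a library was left out (3.45% to 31% of members, against 15.6% to 28.6% of all genes), and that of paralogue shares from 14 to 18; CPM without length, coding length and added genes of the same protein each left 13. Leaving out both libraries, the counts of highest and lowest libraries without scaling and coding length were chosen after seeing the data. The causes were not tested. An SE near 0.10 limits what differences could be called. The 1.5-fold power in simulated data was also limited, but its preset spread was not the members' own, so it does not give their power.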
